A study of Saccharomyces cerevisiae with 4 samples.

Results

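The respiratory chain and ATP synthase subunits described here are 40 nuclear genes set by a fixed list of systematic names. These genes were looked up among the 6207 open reading frames (ORFs) in the table. They comprise 13 subunits of ATP synthase, 9 of cytochrome oxidase, 9 of the bc1 complex, 4 of succinate dehydrogenase, the 2 cytochromes c and the 3 NADH dehydrogenases. Of these, 38 had a value on each of the 4 arrays. The other 2, ATP18 (YML081C-A) and TIM11 (YDR322C-A), both small membrane subunits of ATP synthase, are not among those ORFs and are not analysed here.

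The samples were wild-type budding yeast, Saccharomyces cerevisiae, grown in rich YEPD medium at 24 °C. Each culture was split after 2 h 30 min of growth: the treated part received Zymolyase 100T, an enzyme preparation that digests cell wall glucan, at 5 units/ml for 3 h, and the untreated part grew on without it. Total RNA from 2 cultures was compared on 4 two-colour arrays with the dyes swapped. On arrays 1 and 3 the treated RNA was labelled with Cy3, and on arrays 2 and 4 with Cy5. The strain and the sharing of cultures between arrays are not given in the labels, so arrays were paired into 2 presumed cultures both ways. Each limma p-value sets the mean against a spread between these 2 cultures that is drawn towards one pooled over all ORFs. A gene's own spread thus counts for little: half-widths of the 95% intervals ran only from 0.28 to 0.37 over the subunits. The SD of 4 arrays was 0.06 for ATP1 and 0.87 for COX12. The arrays report RNA of whole cultures, so a change per cell and a change in the share of cells cannot be told apart. Each value is a log2 ratio of treated and untreated RNA with its sign turned by the dyes. The labels do not settle which condition was the numerator, so the sign was set by SLT2 (YHR030C), the cell wall integrity kinase, with its values known. SLT2 had log2 ratios of 2.14, 2.39, 2.18 and 2.31 on arrays 1 to 4. Positive values below lie on the side of SLT2 and negative values opposite to it, without a statement of which is the higher in treated cells.

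In yeast mitochondria, NADH dehydrogenases and succinate dehydrogenase pass electrons to ubiquinone, the bc1 complex passes them on to cytochrome c, and cytochrome oxidase delivers them to oxygen. The bc1 complex and cytochrome oxidase pump protons, and ATP synthase uses the resulting gradient to make ATP. Budding yeast has no proton-pumping NADH dehydrogenase and uses single-subunit enzymes on either face of the inner membrane in its place. In glucose medium these cells ferment, and many of the subunit genes are known to be held down by glucose and raised by the Hap2, Hap3, Hap4 and Hap5 activator.

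Of the 38 measured subunits, 1 passed the test, and it was NDE1 (YMR145C). This gene encodes the main external NADH dehydrogenase, which oxidises cytosolic NADH at the outer face of the inner membrane. Its log2 ratio was 1.17 on array 1, 0.84 on array 2, 0.53 on array 3 and 0.51 on array 4, all on the side of SLT2. The mean was 0.76 ± 0.31 (SD of 4 arrays, n = 2 cultures), a 1.70-fold difference, with an adjusted p of 0.0201 in limma over 4543 ORFs. In limma the call ended once each array was centred on its median (adjusted p = 0.0541), with centring and scaling (0.065), with quantile normalization (0.0536), without array 1 (0.0608) and without array 2 (0.0532). Fits that leave out an array took the other 3 as independent with a dye term, a form in which all 4 arrays gave NDE1 an adjusted p of 0.0209 in limma. The size stayed between 0.60 and 0.92 in these and the other settings tried. Across all ORFs tested, 5.94% passed, 4.56% on the side of SLT2 and 1.39% opposite. The subunits' share on the side of SLT2 was 2.63%, which is 1 gene, and with robust empirical Bayes it was 3 genes or 7.89%, against 7.88% of all ORFs.

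No subunit passed opposite to SLT2 in limma, where 0 had an unadjusted p under 0.05 on that side, against 9.0% of all ORFs. On the side of SLT2 4 had one, NDE1, QCR2, SDH4 and QCR10, a share of 10.5% that was near the 10.3% of all ORFs. Of the 38 means, 37 were smaller than 0.5 in size, and the same 37 had 95% limma intervals within 1 of 0 on the log2 scale. The count of calls depended on how arrays were assigned to cultures. Pairing array 1 with 4 and array 2 with 3 alone, 9 subunits passed on the side of SLT2 (ATP3, ATP4, COX5B, QCR2, QCR8, QCR10, CYT1, SDH4 and NDE1), 23.7% against 13.2% of all ORFs. Opposite, 1 passed, CYC1, 2.63% against 13.9%. Pairing array 1 with 2 and array 3 with 4 alone, NDE1 was the 1 subunit that passed.

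Although single genes rarely passed, the subunits were placed unevenly around 0. The mean lay on the side of SLT2 for 31 of 38 subunits, 81.6%, against 43.3% of all ORFs tested. The median of the means was 0.13, against -0.03 for all ORFs. On arrays 1 to 4 the subunits' medians were 0.35, 0.12, 0.07 and 0.00, while those of all ORFs were 0.04, -0.03, -0.05 and -0.04. Array 1 was thus the highest for the subunits, with 36 of 38 above 0, compared with 24, 23 and 19 on arrays 2, 3 and 4. Of all 4543 ORFs tested, 2452, 2078, 1952 and 2074 were above 0 on arrays 1 to 4, so array 1 was the highest there too. Without array 1 the median of the subunits was 0.07 and 25 of 38 means were above 0, against 42.3% of all ORFs, and without array 3 the median was 0.18. After centring each array, 31 means were still above 0, against 47.6% of all ORFs.

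**Figure D1:**
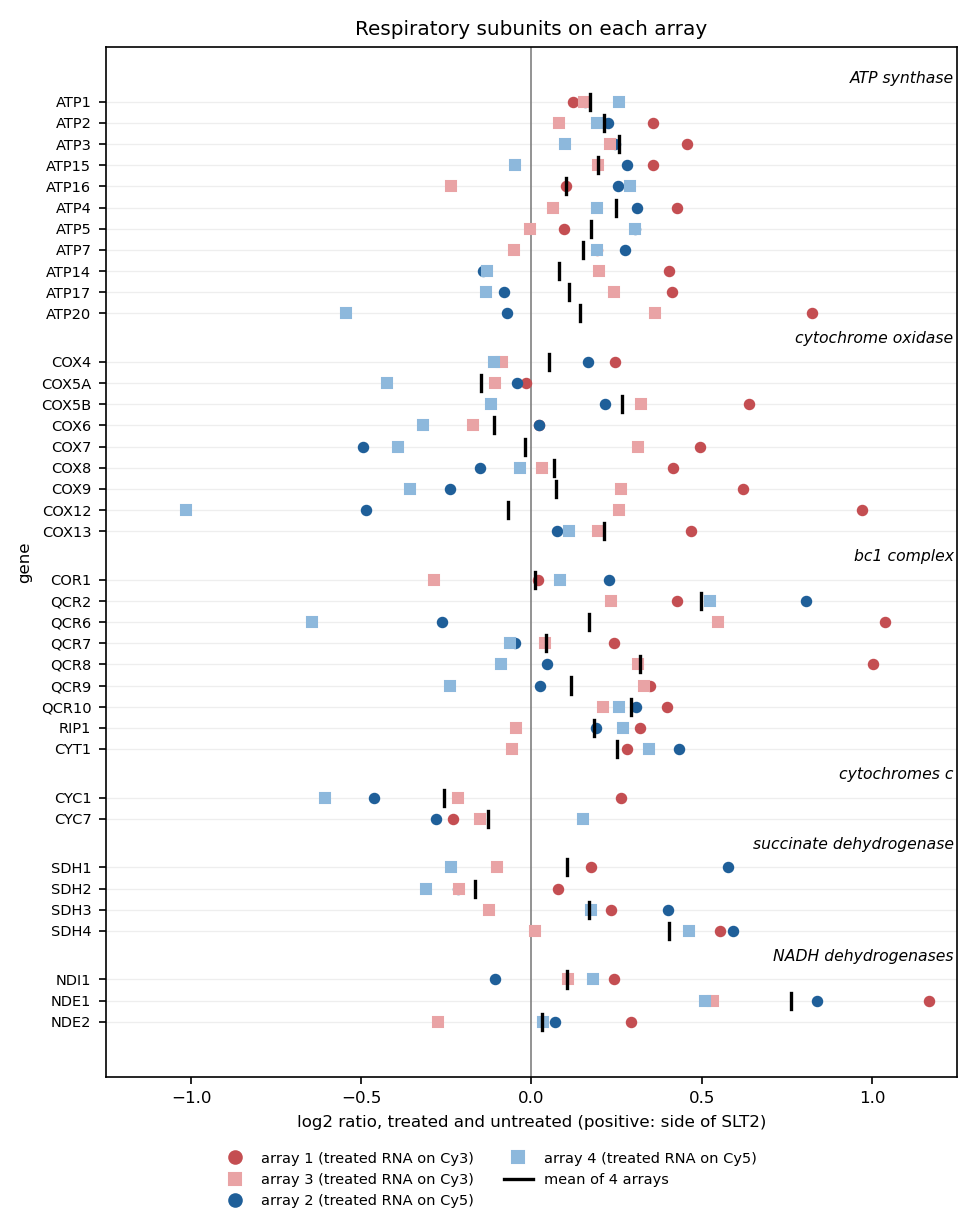
Log2 ratio of each of the 38 measured subunits (rows, by complex) on each of the 4 arrays (points, coloured by the dye of the treated RNA), with the mean of 4 arrays as a black bar. NDE1 has its 4 points between 0.51 and 1.17, whereas COX12 runs from -1.01 to 0.97 and splits by dye.

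ATP synthase had 11 measured subunits, and the mean of each of them lay on the side of SLT2, between 0.08 and 0.26. None passed the test, with adjusted p from 0.311 to 0.791 in limma. Of their 44 single values 34 were above 0, against 8556 of 18172 over all ORFs tested. The medians on arrays 1 to 4 were 0.36, 0.25, 0.15 and 0.19. These medians stood above those of all ORFs on each array.

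In the catalytic F1 sector, which makes ATP in the matrix, the 3 largest subunits were above 0 on each array. ATP1 (YBL099W), the alpha subunit, had log2 ratios of 0.12, 0.16, 0.15 and 0.26 on arrays 1 to 4, and a mean of 0.17 ± 0.06 (SD, 4 arrays). ATP2 (YJR121W), the beta subunit that carries the catalytic sites, had 0.36, 0.22, 0.08 and 0.19, with a mean of 0.21 ± 0.11. ATP3 (YBR039W), the gamma subunit of the rotating stalk, had 0.46, 0.25, 0.23 and 0.10, and its mean of 0.26 was the largest of the complex. Each gene's 95% interval in limma nevertheless reached below 0, for ATP3 from -0.03 to 0.54. ATP15 (YPL271W) and ATP16 (YDL004W), the epsilon and delta subunits of the same stalk, had means of 0.20 ± 0.18 and 0.10 ± 0.24. Each was below 0 on 1 array, ATP15 with -0.05 on array 4 and ATP16 with -0.24 on array 3.

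The peripheral stalk holds the catalytic sector still against the rotor. ATP4 (YPL078C), its subunit b, had 0.43, 0.31, 0.06 and 0.19 on arrays 1 to 4, above 0 on each, with a mean of 0.25 ± 0.16. ATP5 (YDR298C), which joins the stalk to the F1 head, had 0.09, 0.30, 0.00 and 0.30. ATP7 (YKL016C), subunit d, had 0.19, 0.27, -0.05 and 0.19. In both genes array 3 was the lowest.

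A further set of 3 ATP synthase genes split by dye orientation. ATP14 (YLR295C), subunit h of the peripheral stalk, had 0.40 and 0.20 on arrays 1 and 3 but -0.14 and -0.13 on arrays 2 and 4. ATP17 (YDR377W), subunit f of the membrane sector, had 0.41 and 0.24 against -0.08 and -0.13. ATP20 (YPR020W), subunit g, which is known for a part in pairing the enzyme into dimers, had 0.82 and 0.36 against -0.07 and -0.54. These 3 genes were picked by that split, which held for 27.3% of the measured subunits of the complex and 11.6% of all ORFs. Their small positive means of 0.08, 0.11 and 0.14 average values of opposite sign. In ATP1, ATP5 and ATP16, by contrast, arrays 2 and 4 both lay above arrays 1 and 3.

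Cytochrome oxidase, the terminal enzyme of the chain, had 9 measured nuclear subunits with means from -0.15 to 0.26, of which 5 were above and 4 below 0. None passed the test in limma, and none had an unadjusted p under 0.05. Its medians of 0.47, -0.04, 0.19 and -0.32 on arrays 1 to 4 followed the dyes. They were positive where treated RNA carried Cy3 and negative where it carried Cy5.

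COX12 (YLR038C), a small subunit at the outer side of the membrane, showed the widest spread of all subunits, with 0.97, -0.48, 0.26 and -1.01 on arrays 1 to 4. COX7 (YMR256C) had 0.49, -0.50, 0.31 and -0.39, COX9 (YDL067C) had 0.62, -0.24, 0.26 and -0.36, and COX8 (YLR395C) had 0.42, -0.15, 0.03 and -0.03. All 4 are small accessory subunits, and each was above 0 on arrays 1 and 3 and below 0 on arrays 2 and 4. Their means, from -0.07 for COX12 to 0.07 for COX9, average values of opposite sign. The 95% limma intervals, taken after averaging over the dyes, ran from -0.30 to 0.26 for COX7 and from -0.44 to 0.31 for COX12. These were the narrowest and the widest of the 38 subunits. A change was not shown for these genes, and neither was its absence. COX13 (YGL191W), an accessory subunit that is dispensable for the core activity, had 0.47, 0.08, 0.19 and 0.11, above 0 on each array and again higher on arrays 1 and 3. In all 9 subunits of the enzyme the mean of arrays 1 and 3 exceeded that of arrays 2 and 4, as it did in 2229 of 4543 ORFs. COX4 (YGL187C), a subunit needed for assembly, had 0.24, 0.16, -0.09 and -0.11. COX6 (YHR051W), another subunit needed for function, had 0.02, 0.02, -0.17 and -0.32.

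COX5A and COX5B encode alternative forms of subunit 5, of which COX5A is known as the form of aerobic cells and COX5B as the form raised at low oxygen. COX5A (YNL052W) had -0.02, -0.04, -0.11 and -0.43 on arrays 1 to 4, the one subunit below 0 on each array. COX5B (YIL111W) had 0.64, 0.22, 0.32 and -0.12, with a mean of 0.26 ± 0.31 and an adjusted p of 0.331 in limma. COX5A lay below COX5B on 4 of 4 arrays, by 0.65, 0.26, 0.43 and 0.31. The mean difference was -0.41 ± 0.18 (SD of 4 arrays). With 2 cultures the smallest p an exact two-sided sign-flip test allows is 0.5, so the difference was not tested further.

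The bc1 complex takes electrons from ubiquinol to cytochrome c. The mean of each of its 9 subunits lay on the side of SLT2, from 0.01 to 0.50, and none passed the test in limma. Its medians were 0.35, 0.19, 0.21 and 0.08 on arrays 1 to 4. Of 36 single values, 27 were above 0, against 8556 of 18172 over all ORFs tested.

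QCR2 (YPR191W), a large core subunit that faces the matrix, came nearest to the threshold after NDE1. Its values were 0.43, 0.81, 0.23 and 0.52, all on the side of SLT2, with a mean of 0.50 ± 0.24, a 1.41-fold difference. The adjusted p was 0.0612 in limma, with a 95% interval from 0.21 to 0.79. In other limma settings it passed with 4 arrays taken as independent with a dye term (adjusted p = 0.0257), with ORFs of 3 or more values (0.0264) and with robust empirical Bayes (0.00297). COR1 (YBL045C), the other large core subunit, had 0.02, 0.23, -0.29 and 0.08 and so changed sign between arrays.

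The subunits that carry the electrons were intermediate. CYT1 (YOR065W), which encodes cytochrome c1, had 0.28, 0.43, -0.06 and 0.34, with a mean of 0.25 ± 0.21. RIP1 (YEL024W), the Rieske iron-sulphur protein, had 0.32, 0.19, -0.05 and 0.27, with a mean of 0.18 ± 0.16. In both genes array 3 was the one below 0.

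The small subunits of this complex differed from each other. QCR10 (YHR001W-A) had 0.40, 0.31, 0.21 and 0.26, the narrowest spread in the complex, with a mean of 0.29 ± 0.08, and missed the threshold (unadjusted p = 0.0424, adjusted p = 0.235 in limma). QCR6 (YFR033C), an acidic hinge protein, had 1.04 and 0.55 on arrays 1 and 3 but -0.26 and -0.64 on arrays 2 and 4. QCR7 (YDR529C) was of the same kind and smaller in size, with 0.24 and 0.04 against -0.05 and -0.06. QCR8 (YJL166W), a small transmembrane subunit, had 1.00 on array 1, 0.31 on array 3, 0.05 on array 2 and -0.09 on array 4. QCR9 (YGR183C) had 0.35, 0.33, 0.02 and -0.24 in the same order. In QCR6, QCR7, QCR8 and QCR9 both arrays with treated RNA on Cy3 lay above both with it on Cy5. The reverse held in COR1, QCR2 and CYT1 of the same complex. Over its 9 subunits the mean of arrays 1 and 3 exceeded that of arrays 2 and 4 in 5, against 2229 of 4543 ORFs.

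**Figure D2:**
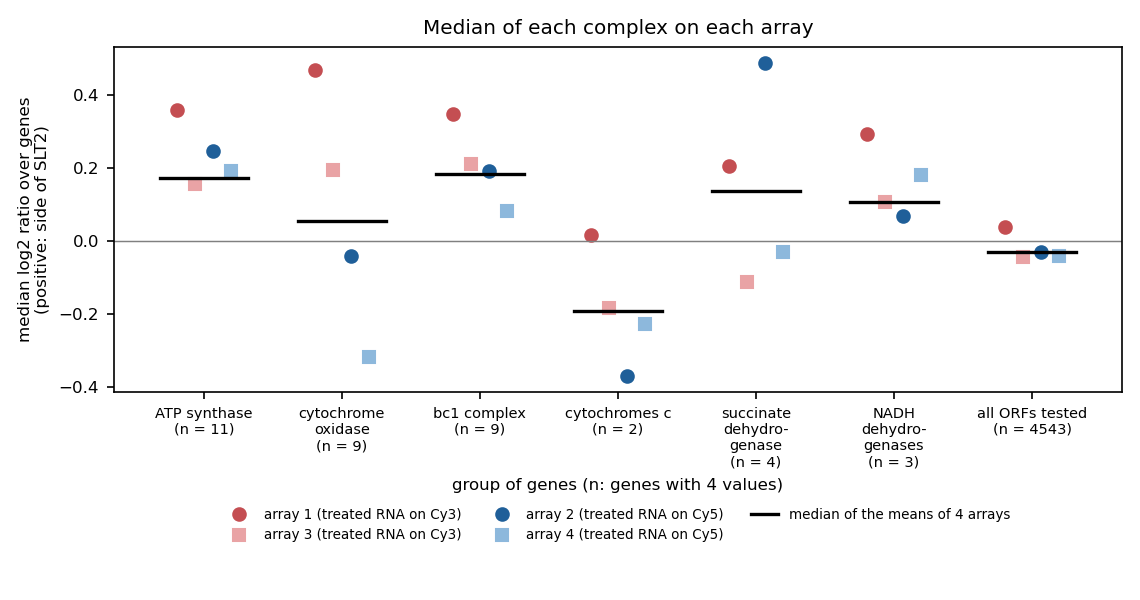
Median log2 ratio over the measured subunits of each complex on each array (points, coloured by the dye of the treated RNA) and the median of the 4-array means (black bars), beside all 4543 ORFs tested. ATP synthase and the bc1 complex are above 0 on each array, and cytochrome oxidase separates by dye from 0.47 to -0.32.

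Cytochromes c, the soluble carriers between the bc1 complex and cytochrome oxidase, were the group with a negative median, -0.19. CYC1 (YJR048W), the main form of aerobic cells, had 0.26, -0.46, -0.22 and -0.61 on arrays 1 to 4, a mean of -0.26 ± 0.38. CYC7 (YEL039C), the minor form favoured at low oxygen, had -0.23, -0.28, -0.15 and 0.15, a mean of -0.13 ± 0.19. Neither passed, with adjusted p of 0.344 and 0.668 in limma. CYC1 was the lowest of the 38 subunits by its mean. CYC1 exceeded CYC7 on 1 of 4 arrays, and the mean difference of -0.13 ± 0.51 was smaller than its spread.

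Succinate dehydrogenase links the citrate cycle to the chain, with the flavoprotein SDH1, the iron-sulphur protein SDH2 and the membrane anchors SDH3 and SDH4. SDH4 (YDR178W) had 0.55, 0.59, 0.01 and 0.46 on arrays 1 to 4, above 0 on each but close to it on array 3. Its mean was 0.40 ± 0.27, with an unadjusted p of 0.016 and an adjusted p of 0.134 in limma. In limma it passed with robust empirical Bayes (adjusted p = 0.0238) and, with arrays as independent and a dye term, without array 3 (mean 0.54, adjusted p = 0.0497), a form in which all 4 arrays gave 0.0781. SDH3 (YKL141W), the other anchor, had 0.23, 0.40, -0.13 and 0.17. SDH1 (YKL148C) had 0.17, 0.58, -0.10 and -0.24, and SDH2 (YLL041C) had 0.08, -0.22, -0.21 and -0.31. The means were 0.40 and 0.17 for the anchors SDH4 and SDH3, and 0.10 and -0.16 for SDH1 and SDH2. The 95% limma intervals of SDH3 (-0.13 to 0.47) and SDH1 (-0.25 to 0.46) overlapped widely. Those of SDH4 (0.10 to 0.71) and SDH2 (-0.45 to 0.12) overlapped only narrowly. A difference between anchors and catalytic subunits was not tested.

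The 3 NADH dehydrogenases are related single-chain enzymes. NDE2 (YDL085W), the minor external form, had 0.29, 0.07, -0.27 and 0.03, with a mean of 0.03 ± 0.23. NDI1 (YML120C), the internal form that oxidises matrix NADH, had 0.24, -0.11, 0.11 and 0.18, with a mean of 0.11 ± 0.15. NDE1 stood above NDE2 on 4 of 4 arrays, by 0.88, 0.77, 0.81 and 0.47, a mean difference of 0.73 ± 0.18. It stood above NDI1 on 4 of 4 arrays too, by 0.93, 0.95, 0.42 and 0.33. As for the subunit 5 pair, 2 cultures allow no exact p under 0.5 for these differences.

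The sign of each gene on single arrays separates these patterns. On the side of SLT2 on each of the 4 arrays were 9 of 38 subunits, 23.7%, against 13.1% of all ORFs. They were ATP1, ATP2, ATP3, ATP4, COX13, QCR2, QCR10, SDH4 and NDE1. Opposite on each array was 1 subunit, COX5A, 2.63% against a background of 15.3%. Positive with treated RNA on Cy3 and negative with it on Cy5 were 9 subunits, 23.7% against 11.6%. These were ATP14, ATP17, ATP20, COX7, COX8, COX9, COX12, QCR6 and QCR7. The reverse split was found in 0 subunits and in 9.77% of ORFs. These classes count only splits that cross 0. Without that condition, arrays 2 and 4 both lay above arrays 1 and 3 in ATP1, ATP5, ATP16, COR1, QCR2 and CYT1. The mean of arrays 1 and 3 exceeded that of arrays 2 and 4 in 24 of 38 subunits, against 2229 of 4543 ORFs. The role of dye in the split was not tested separately from that of the arrays, with 2 arrays in each orientation.

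The order of the subunits was also compared between arrays. Over the 38 subunits the log2 ratios of arrays 1 and 3 correlated at r = 0.81 and those of arrays 2 and 4 at r = 0.76, pairs that share a dye orientation. Between orientations r was 0.01 for arrays 1 and 2, -0.24 for arrays 1 and 4, -0.02 for arrays 2 and 3 and -0.15 for arrays 3 and 4. Over all 4543 ORFs these 4 pairs had r from 0.09 to 0.54, while arrays 1 and 3 had 0.37 and arrays 2 and 4 had 0.75, so the value for arrays 2 and 4 was alike in both sets. These correlations run across genes, which are not independent replicates. In 14 of the 38 subunits, 36.8%, the mean of 4 arrays was smaller in size than the distance of either orientation from it, compared with 47.3% of all ORFs.

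**Figure D3:**
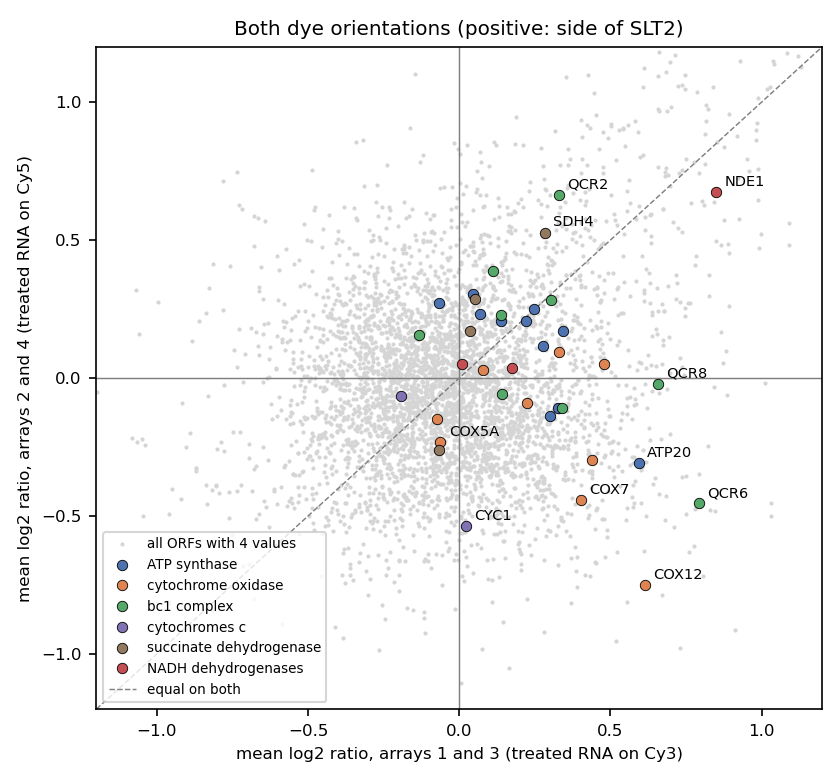
Mean log2 ratio on arrays 1 and 3 (horizontal, treated RNA on Cy3) against that on arrays 2 and 4 (vertical, treated RNA on Cy5) for the 38 subunits, coloured by complex, over all ORFs with 4 values (grey; 91 ORFs lie outside the axes). NDE1, QCR2 and SDH4 are positive on both axes, while COX12, QCR6, ATP20 and COX7 lie in the lower right, positive on one and negative on the other.

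Other genes of respiration were taken from lists of known roles, 129 distinct genes in all, of which 97 had values on 4 arrays. On the side of SLT2 3 passed the test, 3.09% against 4.56% of all ORFs, and 9 had an unadjusted p under 0.05, 9.28% against 10.3%. Opposite, 0 passed in limma and 1 had an unadjusted p under 0.05, 1.03% against 9.0%. Their median mean was 0.02, against 0.13 for the subunits, with 50 means above 0 and 47 below.

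The genes that passed were STF2, PIC2 and MCR1. STF2 (YGR008C), which encodes a factor that stabilises the inhibited form of ATP synthase, had 1.47, 0.60, 1.07 and 0.40 on arrays 1 to 4, a mean of 0.89 ± 0.48 (adjusted p = 0.00551 in limma). PIC2 (YER053C), a mitochondrial phosphate and copper carrier, had 0.84, 0.70, 0.51 and 0.52, a mean of 0.64 ± 0.16 (adjusted p = 0.0232 in limma). MCR1 (YKL150W), a mitochondrial NADH-cytochrome b5 reductase, had 0.45, 0.74, 0.30 and 0.60, a mean of 0.52 ± 0.19 (adjusted p = 0.0454 in limma). All 12 values lay on the side of SLT2. In limma PIC2 lost its call after scaling (adjusted p = 0.0515), without array 1 (0.0547) and without array 2 (0.0593), at sizes of 0.56 to 0.67. MCR1 lost it after centring (0.0606), scaling (0.0646) or quantile normalization (0.054) and without array 1 (0.0611), 2 (0.112) or 4 (0.0625), at sizes of 0.49 to 0.56.

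Assembly factors mostly showed small means. ATP synthase assembly and inhibitors had STF2 as 1 of 12 measured genes past the test. With STF2 included, 2 of the 12 had an unadjusted p under 0.05 in limma, on the side of SLT2. AEP2 was lowest at -0.08 ± 0.29, and the median was -0.03. Of 26 cytochrome oxidase assembly genes 0 passed, with COA6 highest (0.25 ± 0.42), COX11 lowest (-0.14 ± 0.18), and a median of -0.01. Of 13 assembly genes for the bc1 complex, cytochrome c and succinate dehydrogenase 0 passed, although 1, SDH5, had an unadjusted p of 0.0496 in limma. SDH5, which helps to add flavin to SDH1, was the highest of these (0.30 ± 0.45) and MZM1 the lowest (-0.19 ± 0.28), with a median of 0.11. Cytochrome oxidase assembly had 0 at an unadjusted p under 0.05.

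Cofactor synthesis was divided. In ubiquinone synthesis 0 of 11 genes passed in limma and 1 had an unadjusted p under 0.05. COQ6, which encodes a hydroxylase, was highest (0.31 ± 0.12), COQ2 lowest (-0.20 ± 0.39), and the median was 0.08. In haem synthesis 0 of 7 passed, 1 had an unadjusted p under 0.05, and the median was -0.09. The lowest was HEM13, an oxygen-dependent enzyme gene known to be raised when haem or oxygen is short, with -0.31, -0.38, -0.39 and -0.33 on arrays 1 to 4 (mean -0.35 ± 0.04, adjusted p = 0.144 in limma). Its 4 values were close to each other and all opposite to SLT2. HEM15, ferrochelatase, was the highest with 0.24 ± 0.12.

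Among other electron donors and acceptors MCR1 was 1 of 4 past the test, ERV1 was lowest (-0.01 ± 0.10), and the median was 0.18. Among inner membrane carriers and porins PIC2 was 1 of 10 past the test and 4 had an unadjusted p under 0.05, all on the side of SLT2. The lowest carrier was AAC3 (-0.28 ± 0.20), a minor ADP/ATP carrier gene known as hypoxic, and the median was 0.18. Of 13 regulators of respiratory genes 0 passed in limma and 0 had an unadjusted p under 0.05. HAP1, a haem-dependent activator, was highest at 0.18 ± 0.76 and TUP1, a corepressor, lowest at -0.21 ± 0.73, with a median of -0.02. HAP1 and TUP1 each changed sign between arrays. Of the list of other subunits and paralogues SHH4, a relative of SDH4, was the 1 gene with 4 values (-0.06 ± 0.22). The subunits encoded in the mitochondrial genome were not analysed here.

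For context, 0 of 10 hypoxic genes passed in limma, 1 on each side had an unadjusted p under 0.05, and the median was 0.03. TIR4 (0.34 ± 0.61) was highest and HEM13 lowest. The list holds COX5B and CYC7 and shares AAC3, HEM13 and ROX1 with the lists above. Of 9 glucose-repressed genes HXK1, a hexokinase gene, passed on the side of SLT2 (0.77 ± 0.14, adjusted p = 0.00838 in limma). MDH2, a cytosolic malate dehydrogenase gene, passed opposite (-0.52 ± 0.31, adjusted p = 0.0468 in limma). The call of MDH2 ended in 8 other settings at the same threshold, with adjusted p from 0.0525 without array 1 to 0.109 without array 4, and from 0.0603 to 0.0795 in the others. Its mean stayed between -0.56 and -0.48 in them. In this list 3 genes had an unadjusted p under 0.05 in limma on the side of SLT2 and 1 opposite. The median of the list was 0.02, with medians of -0.12, 0.33, -0.13 and 0.43 on arrays 1 to 4. Of 12 genes of mitochondrial protein import 0 passed in limma and 0 had an unadjusted p under 0.05, with TIM44 highest (0.08 ± 0.25), SSC1 lowest (-0.23 ± 0.12) and a median of -0.03.

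**Figure D4:**
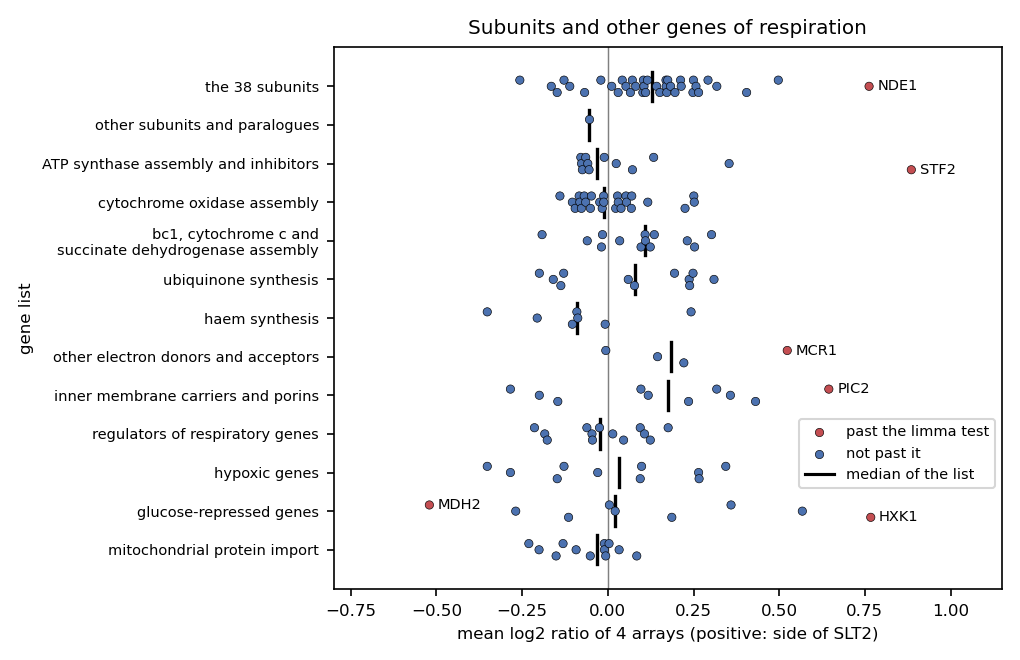
Mean log2 ratio of 4 arrays (points; red where the limma test was passed) for the 38 subunits and each list of other respiratory and context genes, with the median of each list as a black bar. The subunits' median of 0.13 lies between those of haem synthesis (-0.09) and of the electron donors (0.18), and 6 points pass the test.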

How the data were processed

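The authors deposited 1 table with a value per ORF and array, read here as log2 ratios of the 2 channels. Their log base, background correction, normalization and filtering are not stated in any label or header used here. Per the labels' protocols, cDNA from total RNA was labelled with Cy3 or Cy5. Of 6209 rows, 2 control rows were left out. Signs were turned by the dye labels and then jointly so that SLT2 is positive. Between 16.0% and 21.3% of ORFs were empty per array, and 4543 had 4 values. Intensities were not used here, so the number of arrays limits the precision.

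Arrays of a presumed culture were averaged, and limma 3.58.1 (lmFit, eBayes) in R 4.3.3 was run under both pairings of arrays, with the larger p and the wider 95% interval retained per ORF and Benjamini-Hochberg adjustment over 4543 ORFs at 0.05. The fit was tested on simulated data. Gene names come from the RefSeq table of assembly R64, in which 5654 ORFs matched by locus tag. Members and lists were chosen with earlier results of these data known. Named were all subunits, and of each other list the genes past the test and the highest and lowest mean. Alternatives were each pairing alone, 4 arrays as independent, 3 normalizations, a filter of 3 values, robust empirical Bayes, 2 thresholds and leaving out each array. Promoter motifs and protein identities had been planned and were not run.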

Additional observations from a re-analysis of the deposited data

Results flagged for a closer look

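For 2 of the 60 genes checked, 1 array stood far from the other 3. That is fewer than the 1 in 20 that chance marks in groups of 4 independent values, which arrays of 2 cultures are not. The 60 were a chosen part of the genes measured, so this comparison does not cover the rest. SHH4 had 0.28 on array 4 and -0.19 to -0.16 on the others. MZM1 had 0.22 on array 1 and -0.35 to -0.31 on the others. Outside the 60, PET100 had 0.69 on array 1 and 0.05 to 0.08 on the others. None of the 38 subunits was marked in this way. The rule seeks 1 array apart from 3, so the 9 subunits that split by dye, 2 arrays against 2, could hardly be marked.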

How the results depend on the processing

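The count of subunits past the test on the side of SLT2, 1 as reported, was 9 when array 1 was paired with 4 and array 2 with 3, 3 with robust empirical Bayes, and 2 with 4 arrays as independent with a dye term, with ORFs of 3 or more values and at a threshold of 0.1. It was 0 with arrays centred, with centring and scaling, with quantile normalization and at a threshold of 0.01, and 0 to 2 when 1 array was left out. Opposite to SLT2 it was 0, and 1 under the same pairing. The other respiratory genes numbered 3 on the side of SLT2, 17 under that pairing, 1 with centring and scaling, 1 at a threshold of 0.01 and 1 to 3 when 1 array was left out. Opposite they numbered 0, but 2 under that pairing, 1 with 4 arrays as independent with a dye term and 1 with ORFs of 3 or more values. Of all ORFs, 207 passed with SLT2 and 63 against it, compared with 598 and 631 under that pairing and 166 and 27 after centring. The cause of these changes was not tested. Medians of the subunits and of each complex moved by less than the spread between arrays under the 3 normalizations and without each array. Without 1 array this outcome was nearly fixed in advance, since a mean of 4 moves by less than the SD of its arrays. The bc1 median still went from 0.18 to 0.29 without array 3, against a spread of 0.11. Taking 4 arrays as independent or filtering on 3 values leaves these medians the same by construction. For cytochrome oxidase the spread was 0.33 against a median of 0.05, which turned to -0.03 without array 1. The spread also exceeded the median for all subunits (0.15 against 0.13) and for succinate dehydrogenase (0.27 against 0.14). With arrays centred, 1 subunit in place of 0 was positive with treated RNA on Cy5 and negative with it on Cy3, an alternative chosen after seeing the data. Each ratio already pairs the treated and untreated parts of a split culture, so with 1 group of ratios no further replicate block was fitted. Fits without 1 array took the others as independent with a dye term. Motif and protein comparisons were not run.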
